A study of Homo sapiens with 10 samples.

Results

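The comparison set KYSE-410 cells given siSHIP2 against KYSE-30 cells given siCT, and used 3 and 2 of the 10 libraries of the study. KYSE-410 and KYSE-30 are established lines of human esophageal squamous cell carcinoma. The siRNA siSHIP2 targets INPPL1, the gene of SHIP2, and siCT is the control siRNA. Total RNA was collected 48 h after transfection and sequenced from Ovation Solo libraries. The libraries were taken by line and siRNA, and the groups were paired because INPPL1 was known to stand at about the same level in both. The question was which differences between the lines remained at that level, which closed and which widened. The other libraries, 3 of KYSE-410 with siCT and 2 of KYSE-30 with siSHIP2, gave the difference between the lines with siCT and the change within each line. Line and siRNA differed together in this comparison, so their parts cannot be told apart from these 5 libraries alone. Another siRNA against INPPL1 was not analysed here.

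SHIP2 is a phosphatase of the inositol lipids at the inner face of the plasma membrane. It removes a phosphate from phosphatidylinositol trisphosphate, the lipid that PI3K makes after a growth factor receptor is engaged and that recruits AKT. Active AKT holds FOXO transcription factors out of the nucleus, and FOXO factors in turn drive genes of autophagy, cell cycle arrest and cell death.

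INPPL1 (ENSG00000165458, GRCh38, chromosome 11, 72223701 to 72239105, plus strand) stood at 44.7, 37.3 and 39.1 CPM (counts per 1 M counts) in the KYSE-410 siSHIP2 libraries, against 39.9 and 36.2 CPM in the KYSE-30 siCT libraries. The groups overlapped. The means were 40.4 ± 3.89 CPM in KYSE-410 with siSHIP2 (SD, n = 3) and 38.0 ± 2.61 CPM in KYSE-30 with siCT (SD, n = 2). On the log2(CPM + 1) scale, which is used for all differences here and understates those of low genes, the difference was 0.08, with a 95% interval of -0.08 to 0.24. No test is given for it, because the groups were paired on this level. With upper quartile scaling its sign turned, at a size near 0. In KYSE-410 with siCT it was at 107, 108 and 109 CPM, a difference of 1.48 from KYSE-30 with siCT, and the change with siSHIP2 was -1.402, to 37.4% of the control mean. KYSE-30 with siSHIP2 held 23.2 and 24.5 CPM, so against those libraries KYSE-410 with siSHIP2 was still higher by 0.73, given without a test for the same reason. These are mRNA levels, and SHIP2 protein was not analysed here. The homologue SHIP1 has the gene INPP5D, which was at 0.05, 0 and 0 CPM in KYSE-410 with siSHIP2 and at 0.55 and 0.5 CPM in KYSE-30 with siCT, near the floor of 0.15 CPM.

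Replicates carry numbers in the labels, but nothing says whether they were grown separately, so every p-value rests on the spread of these samples alone, and that spread may be technical. The 5 libraries had values above 0 for 26636 to 28623 of 58302 genes, and 2.69% to 3.11% of each fell to its 10 leading genes. Replicates of a group differed by 0.10 to 0.18 (root mean square, log2). The summed level of 11 squamous markers was 778 to 901 CPM in KYSE-410 with siSHIP2 and 2077 to 2203 CPM in KYSE-30 with siCT, and that of 10 glandular markers, simple-epithelium keratins included, was 4075 to 4420 and 4827 to 5265 CPM. Among the keratins of squamous epithelium, KRT5 was at 1.65 to 4.85 CPM in KYSE-410 with siSHIP2 and 0.1 to 0.3 CPM in KYSE-30 with siCT, and KRT14 was at 0.5 to 0.649 and 4.90 to 5.15 CPM. KRT17 was at 111.5 to 126.2 CPM in KYSE-410 with siSHIP2 and 0.7 to 0.899 CPM in KYSE-30 with siCT, KRT15 at 7.50 to 8.69 and 35.1 to 39.0 CPM, and KRT13 at 40.9 to 81.8 and 45.2 to 97.4 CPM. KRT5 and KRT14, which mark basal squamous cells, were thus near or below 5 CPM in all 5 libraries, and the other keratins named were not all low. Of 9 fibroblast markers the sum was 93.0 to 99.4 CPM against 6.30 to 7.10 CPM. LUM, a matrix proteoglycan, made up 73.6 to 85.5 CPM of it in KYSE-410. COL1A1, a collagen gene, was at 11.8, 17.4 and 13.5 CPM in KYSE-410 with siSHIP2 and 6.45 and 5.85 CPM in KYSE-30 with siCT. PDGFRA, COL1A2 and COL3A1 were at 0.35 CPM or less. Of 7 immune markers the sum was 10.6 to 13.8 CPM against 35.9 to 37.9 CPM, mostly CD68 and, in KYSE-30, CSF1R at 17.34 to 17.99 CPM, while CD3E and MS4A1 were at 0 in all 5 libraries. Of 6 endothelial markers the sum was 1.15 to 1.55 CPM against 4.25 to 7.25 CPM. In such bulk samples fewer cells of a kind and less RNA per cell cannot be told apart, and the part of these markers in the differences was not tested.

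At about the same level of INPPL1 mRNA, KYSE-410 with siSHIP2 and KYSE-30 with siCT differed at most tested genes. Of 20466 tested genes, 8559 were higher (41.8%) and 7138 were lower (34.9%) in KYSE-410 with siSHIP2 than in KYSE-30 with siCT, by limma with Benjamini-Hochberg adjusted p under 0.05. At 2-fold or more, 2878 were higher (14.1%) and 2140 were lower (10.5%). With siCT in both lines, 7610 genes were higher (37.2%) and 7929 were lower (38.7%) in KYSE-410. The median size of the difference over all tested genes was 0.53 in the comparison with siSHIP2 and 0.51 with siCT. Within KYSE-410, siSHIP2 raised 6256 genes (30.6%) and lowered 3949 (19.3%). That split turned with the scaling, to 4534 higher and 5163 lower with TMM scaling and 4435 higher and 5257 lower with relative log expression scaling, as the median knockdown change over all tested genes was 0.07 without rescaling, 0 with TMM and -0.0028 with relative log expression scaling.

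Genes were then sorted by 3 differences of one fit. The control difference is KYSE-410 with siCT minus KYSE-30 with siCT, the knockdown change is KYSE-410 with siSHIP2 minus KYSE-410 with siCT, and their sum is the difference asked about, KYSE-410 with siSHIP2 minus KYSE-30 with siCT. Since the differences share libraries, an error in the KYSE-410 siCT mean moves the control difference and the knockdown change in opposite directions. Differences between the lines remained, with no call for the knockdown, at 6968 genes (34% of those tested). They narrowed but stayed called at 2649 (12.9%) and closed, with the line difference no longer called, at 1624 (7.94%). They widened at 3308 genes (16.2%), opened where the control difference was not called at 1801 (8.8%), and turned round at 427 (2.09%). The turned count was 235 without KYSE-30 siCT replicate 1 and 256 without replicate 2. Of the genes whose control difference was called, 44.8% remained, 17% narrowed, 10.5% closed, 21.3% widened and 2.75% turned.

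The median knockdown change was 0.36 in size at narrowed genes and 0.38 at widened ones. Narrowed differences had a median size of 0.67 with siSHIP2 and 1.08 with siCT in KYSE-410, and widened ones had 1.06 and 0.63. Of the 1624 closed genes, 1588 had a 95% interval within 1.5-fold either way, but only 48 of the closed genes had differed by 2-fold or more with siCT. Where a 2-fold difference between lines and a 1.5-fold knockdown change were asked for, 3365 differences remained (16.4%), 251 narrowed (1.23%), 257 came under 2-fold (1.26%), 227 widened (1.11%) and 438 passed 2-fold (2.14%). Just 2 turned (0.00977%), TP53INP1 and CALCOCO1, both regulators of autophagy. Widening went toward higher in KYSE-410 at 2095 genes (10.2%) and toward lower at 1213 (5.93%). The lean toward higher depended on the scaling, with 1570 higher and 1527 lower under TMM scaling and 1510 higher and 1574 lower under relative log expression scaling.

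**Figure D1:**
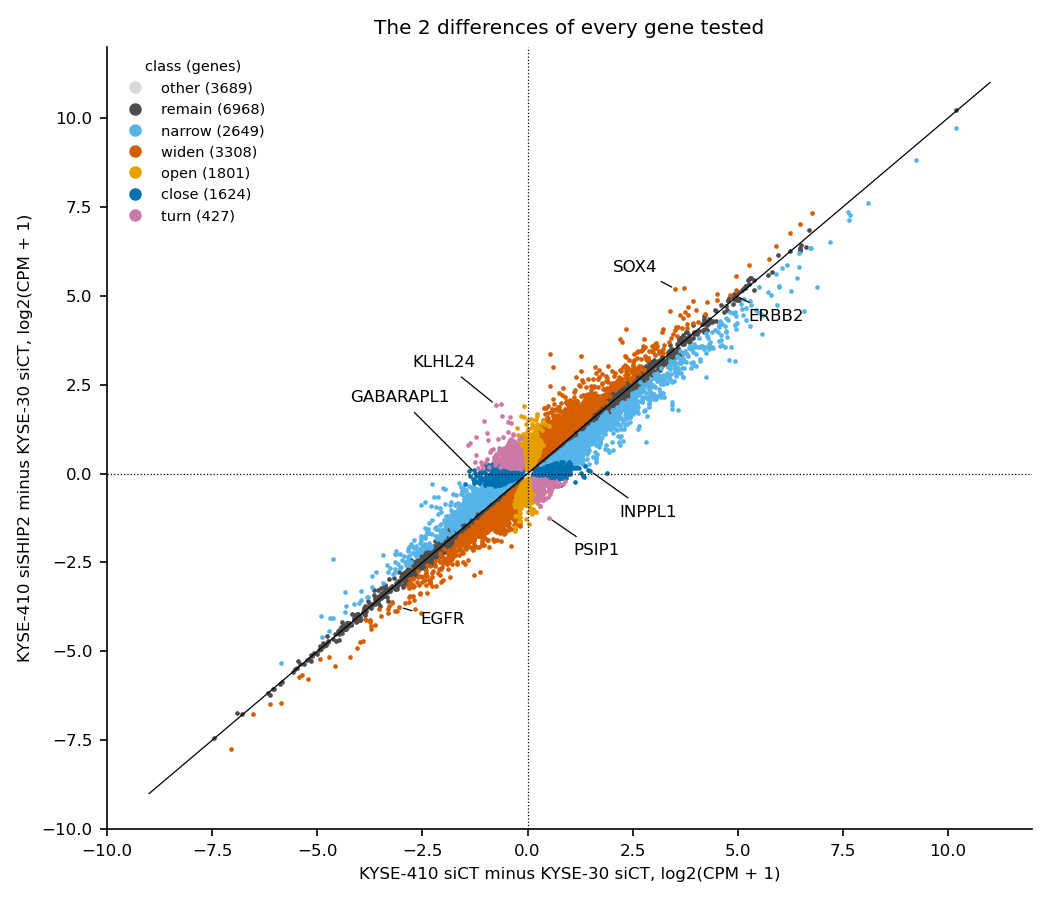
Difference between the lines with siCT in both (x axis) and with siSHIP2 in KYSE-410 (y axis), both KYSE-410 minus KYSE-30 siCT on log2(CPM + 1), for 20466 genes coloured by class. Genes on the diagonal have the same difference with either siRNA; narrowed genes lie between the diagonal and 0 and widened genes beyond it.

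Among the largest differences that remained were those of genes on in KYSE-410 and close to 0 in KYSE-30, or the reverse. Others, such as KRT7 and CDH2 below, were present in both lines at unlike levels. DIO2, a deiodinase that activates thyroid hormone, stood at 1466, 1316 and 1330 CPM in KYSE-410 with siSHIP2, against 0.2 and 0.1 CPM in KYSE-30 with siCT (difference 10.22, SE 0.077, limma adjusted p = 1.71e-21), and its knockdown change was 0.03. BST2, which tethers enveloped viruses to the cell surface, was at 96.9, 95.7 and 103 CPM against 0.1 and 0.2 CPM, and KRT7, a keratin of simple epithelia, at 1811, 1896 and 1960 CPM against 48.1 and 44.3 CPM (5.33). No library of either group came near the other. WFDC2, EDIL3 and S100P, which encode a secreted whey acidic protein, an integrin ligand of the matrix and a calcium-binding protein, were the other leading genes that remained higher (6.86, 6.38 and 6.35). CDH2, the gene of N-cadherin, was at 122, 107 and 105 CPM against 6.395 and 8.644 CPM (3.73), with a knockdown change of -0.02.

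In the other direction, INA, a neuronal intermediate filament gene, was at 0, 0.05 and 0 CPM in KYSE-410 with siSHIP2 and at 173 and 177 CPM in KYSE-30 with siCT. PEBP1, the gene of an inhibitor of RAF kinase, was at 0, 0.1 and 0.15 CPM against 115 and 119 CPM. The fitted differences were -7.44 and -6.77, and the knockdown change was 0.02 at each and not called. COL4A2, a chain of basement membrane collagen, and CPPED1, a phosphatase gene, also remained lower (-6.74 and -6.18). IVL and SPRR1B encode precursors of the cornified envelope of squamous cells, and were listed at 0 in all 3 KYSE-410 siSHIP2 libraries. In KYSE-30 with siCT they were at 27.7 and 31.7 CPM and 15.6 and 17.4 CPM. Of 29 tested genes of squamous differentiation, 15 were lower and 8 were higher, against 34.9% and 41.8% of all tested genes. CSTA, one of those higher, was at 13.3, 15.1 and 15.7 CPM in KYSE-410 with siSHIP2 and listed at 0 in both KYSE-30 siCT libraries. SOX2, a squamous lineage factor, remained lower at 1.15, 1.30 and 0.949 CPM against 7.19 and 5.20 CPM (-1.74). TP63, the basal squamous master regulator, remained higher at 94.3, 76.5 and 80.8 CPM against 51.4 and 41.0 CPM (0.85).

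ERBB2, the receptor kinase gene of HER2 (chromosome 17, 39687914 to 39730426, plus strand), was among the most abundant genes that remained. It stood at 4581, 4509 and 4706 CPM in KYSE-410 with siSHIP2 and at 160 and 126 CPM in KYSE-30 with siCT (difference 5.01, SE 0.075, limma adjusted p = 3.32e-18). KYSE-410 with siCT held 4393, 4381 and 4447 CPM, so the knockdown change was 0.06 and was not called. Of 15 listed genes around ERBB2 on 17q12, 14 were higher in KYSE-410 with siSHIP2, against 41.8% of all tested genes, and 0 were lower (0 to 1 when each library was left out), with a median of 2.64 against 0.07 over all tested genes. The 6 genes within 51 kb of the ERBB2 start that were higher by more than 4 were STARD3, a lipid transfer protein gene (4.88), TCAP (4.56), PGAP3 (6.39), ERBB2, MIEN1 (4.73) and GRB7, an adaptor of receptor kinases (4.85). PGAP3 and MIEN1 overlap the ends of ERBB2 on the other strand, and no source used here states that counting used strand, so their reads and those of ERBB2 cannot be told apart. Among the 15, 8 widened and 4 remained, against 16.2% and 34% of all tested genes. GRB7 was at 934, 1086 and 1024 CPM against 37.1 and 31.5 CPM, and its control difference was 3.94. GSDMB, a gasdermin gene farther out, was at 118, 197 and 158 CPM against 22.8 and 25.0 CPM, with differences of 2.64 with siSHIP2 and 1.30 with siCT in KYSE-410. Over 64 tested genes within 2000 kb of the ERBB2 start, 42 were higher and 13 lower, against 41.8% and 34.9% of all tested genes. TNS4, a tensin gene, went the other way by -5.15.

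**Figure D2:**
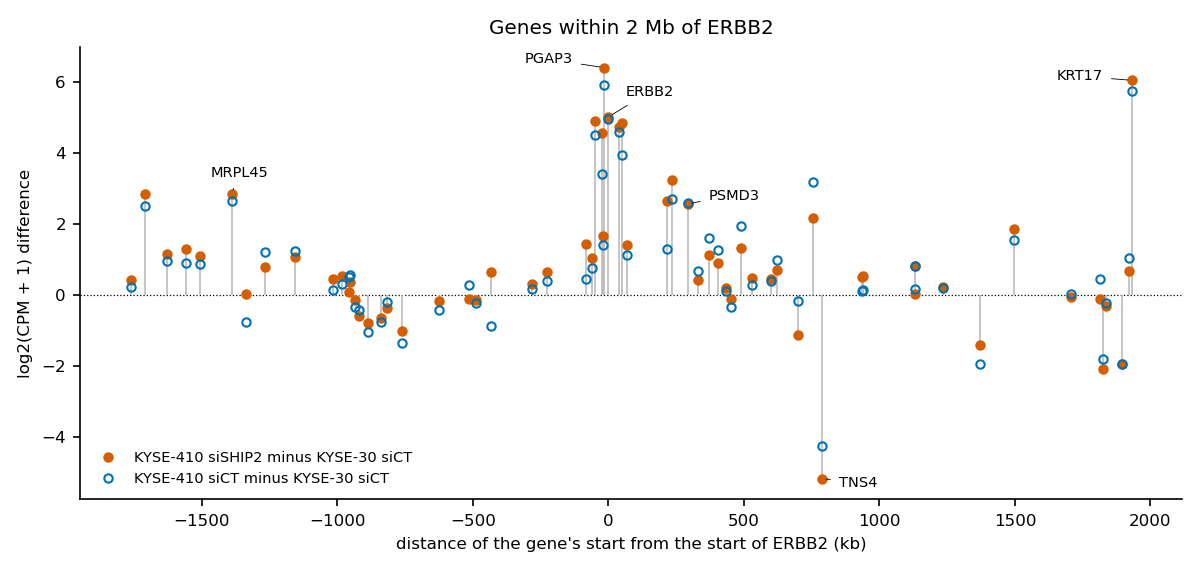
Difference of each tested gene near ERBB2 (y axis, log2(CPM + 1), KYSE-410 minus KYSE-30 siCT) against the distance of its start from that of ERBB2 (x axis, kb). Filled orange points are KYSE-410 with siSHIP2 and open blue points KYSE-410 with siCT. Above 4 lie 6 genes within 51 kb of ERBB2 and, much farther out, KRT17, while TNS4 lies at -5.15.

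Genes that closed came to about the KYSE-30 level together with INPPL1. Among those lower in KYSE-410 with siCT, GABARAPL1, an ATG8-family gene of autophagosome formation (chromosome 12, 10212458 to 10223130), was at 68.9, 83.5 and 73.2 CPM in KYSE-410 with siSHIP2 and at 80.4 and 68.6 CPM in KYSE-30 with siCT. KYSE-410 with siCT held 31.1, 30.9 and 30.1 CPM. The siSHIP2 and KYSE-30 groups overlapped, with a difference of 0.01 (95% interval -0.17 to 0.19, limma adjusted p = 0.889), where the control difference was -1.25. Against KYSE-30 with siSHIP2, at 53.3 and 60.3 CPM, the difference was 0.40, and its change with siSHIP2 within KYSE-30 was -0.38 (limma adjusted p = 0.043). JUND, an AP-1 subunit gene, was at 27.3, 35.3 and 32.2 CPM against 29.2 and 29.1 CPM, and its difference was 0.10 (-0.10 to 0.31) where the control difference was -1.27. KIAA0355, HDAC5, a histone deacetylase gene, THBS3, a thrombospondin gene, and UBN2, a histone chaperone gene, also closed from below, with intervals between -0.34 and 0.35.

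From above, SLC37A2, a sugar phosphate transporter gene, closed to 75.3, 50.1 and 66.0 CPM in KYSE-410 with siSHIP2, against 69.3 and 66.4 CPM in KYSE-30 with siCT and 178, 172 and 176 CPM in KYSE-410 with siCT. HEG1, a transmembrane mucin-like gene of cell junctions, was at 32.6, 26.5 and 24.2 CPM against 30.4 and 27.1 CPM in KYSE-30 with siCT (difference -0.06, 95% interval -0.27 to 0.16, control difference 1.33). The groups overlapped at each of these genes. NT5DC2 and SLC25A32, a mitochondrial carrier gene, closed likewise (0.09 and 0.03, against 1.45 and 1.28 with siCT). SCNN1A, a subunit gene of the epithelial sodium channel, was not called at -0.33, but its interval of -0.69 to 0.02 leaves room for a difference of over 1.5-fold. The smaller control differences of AKT1 (0.35) and of the cyclin gene CCND1 (0.48) closed as well, to 0.09 and -0.03. AKT1 was at 154, 151 and 153 CPM in KYSE-410 with siSHIP2 and 143 and 144 CPM in KYSE-30 with siCT, so its groups did not overlap although the difference was not called.

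**Figure D3:**
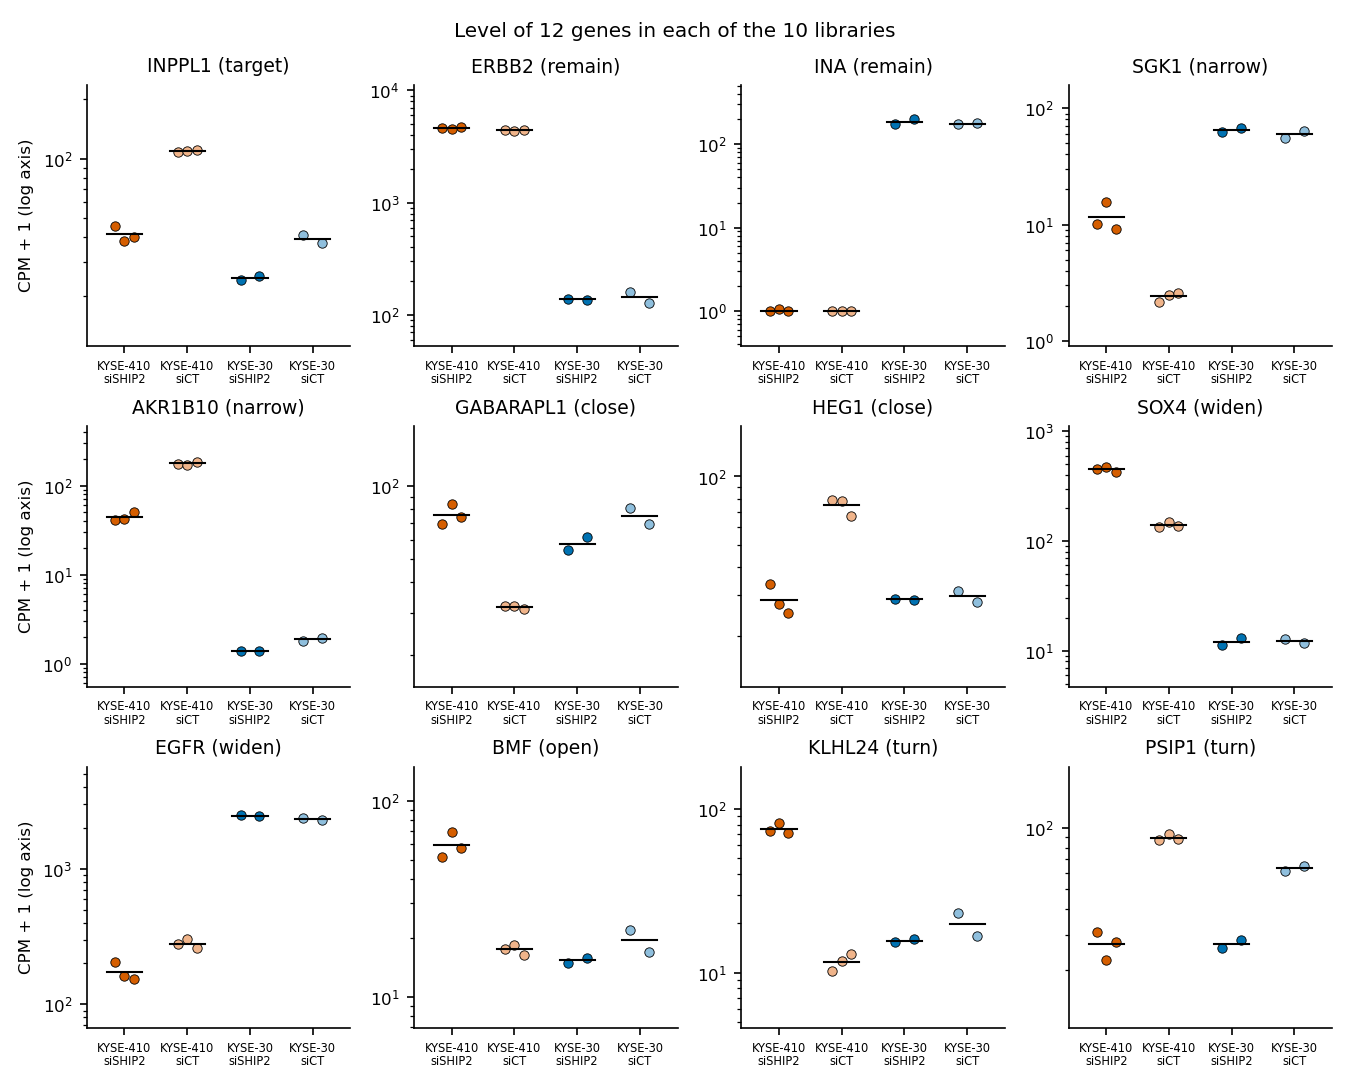
Level of 12 genes in each of the 10 libraries (CPM + 1, log axis), grouped from left to right as KYSE-410 siSHIP2, KYSE-410 siCT, KYSE-30 siSHIP2 and KYSE-30 siCT, with a line at each mean. INPPL1, GABARAPL1 and HEG1 in KYSE-410 with siSHIP2 stand at the level of KYSE-30 with siCT, ERBB2 and INA do not move, and KLHL24 and PSIP1 cross to the other side.

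The largest knockdown change among narrowed genes was that of SGK1, a kinase related to AKT (chromosome 6, 134169246 to 134318112). It stood at 9.10, 14.5 and 8.14 CPM in KYSE-410 with siSHIP2 and at 54.9 and 63.0 CPM in KYSE-30 with siCT (difference -2.41, SE 0.17, limma adjusted p = 7.58e-10). The level in KYSE-410 with siCT was 1.149, 1.499 and 1.599 CPM, a control difference of -4.63. Every KYSE-410 library stayed below every KYSE-30 library. IGFBP3, a binding protein gene for insulin-like growth factors, narrowed from below to -0.79 (control difference -2.44), NDRG1, a gene of the stress response, to -0.94, and MARCH8, a ubiquitin ligase gene, to -0.87 (-2.53). From above, TGM2, a transglutaminase gene, narrowed to 75.3, 35.8 and 42.1 CPM, against 3.60 and 5.55 CPM in KYSE-30 with siCT (3.17, control difference 4.94), with replicate 1 of KYSE-410 siSHIP2 above the others. MMP2, a gelatinase gene, was at 77.2, 57.1 and 63.5 CPM against 25.6 and 27.7 CPM (1.27, control difference 2.62).

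Genes of the NRF2 response mostly narrowed. NRF2 is the factor that turns on enzymes of glutathione and NADPH supply and of detoxification under oxidative stress. Of 33 tested members, 25 were higher and 3 were lower in KYSE-410 with siSHIP2 than in KYSE-30 with siCT, against 41.8% and 34.9% of all tested genes, and their median was 1.06, against 1.166 with siCT and 0.07 over all tested genes. Knockdown lowered 23 of them and raised 3, against 19.3% and 30.6% of all tested genes. The difference narrowed at 18 of 33 members and closed at 5, against 12.9% and 7.94% of all tested genes. It remained at 7, against 34%. When each library was left out, 15 to 20 narrowed and 3 to 6 closed, the 3 without KYSE-410 siSHIP2 replicate 2.

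AKR1B10, an aldo-keto reductase (chromosome 7, 134527592 to 134541408), was at 39.9, 41.6 and 49.8 CPM in KYSE-410 with siSHIP2 and at 0.799 and 0.949 CPM in KYSE-30 with siCT (4.57, SE 0.095, limma adjusted p = 1.95e-16), where KYSE-410 with siCT held 174, 172 and 185 CPM (6.57). GPX2, a glutathione peroxidase gene, was at 92.1, 69.7 and 83.9 CPM against 1.499 and 0.899 CPM (5.24, control difference 6.88). Both stayed far above KYSE-30 after the knockdown. The members that closed were GSR, glutathione reductase (0.11, control difference 0.80), TKT, transketolase (0.05 and 0.87), GCLM, a subunit of glutamate-cysteine ligase (0.09 and 0.49), and the efflux pumps ABCC1 (0.13 and 0.58) and ABCC3 (-0.05 and 0.83). GSR was at 197, 175 and 177 CPM in KYSE-410 with siSHIP2, 300, 290 and 295 CPM in KYSE-410 with siCT and 173 and 165 CPM in KYSE-30 with siCT. The first group lay just above the last. Members that remained included NQO1, a quinone reductase (1.58), HMOX1, heme oxygenase (2.60), and GCLC, the other subunit of the ligase (2.21). TXNRD1, thioredoxin reductase (1.05 and 0.90), and NFE2L2, the gene of NRF2 itself (0.93 and 0.64), widened. AKR1C1, AKR1C2 and AKR1C3 narrowed by small amounts, but they are close copies of each other and reads may be shared between them. ABCC2, another pump, went the other way, at 1.45, 2.20 and 2.00 CPM against 113 and 114 CPM (-5.32).

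The promoter of GPX2 is printed because GPX2 was among the members that narrowed strongly (knockdown change -1.64) and its promoter holds a match to the antioxidant response element, the site NRF2 binds. It covers 250 bases before to 50 after the start in RefSeq (GRCh38.p14, chr14:64942696-64942995, minus strand), 5′ to 3′, and the capitals mark the match, which begins 122 bases before the start and reads on the opposite strand.
GPX2: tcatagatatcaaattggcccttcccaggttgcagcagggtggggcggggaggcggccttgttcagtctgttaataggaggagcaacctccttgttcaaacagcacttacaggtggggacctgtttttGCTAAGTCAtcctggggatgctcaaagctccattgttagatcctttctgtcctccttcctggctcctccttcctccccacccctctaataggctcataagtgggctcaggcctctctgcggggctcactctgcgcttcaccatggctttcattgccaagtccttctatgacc
The letters searched were TGACNNNGC on both strands, found in 14.9% of 11613 promoters of tested genes and in 7 of the 23 NRF2 members with a promoter. The gene and the motif were chosen after values were seen, and a match is a description of the letters only.

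Among widened genes with a mean over the 5 libraries above 14.24 CPM, the median of tested genes, SOX4 had the largest upward knockdown change (1.67). It is a developmental transcription factor gene (chromosome 6, 21592768 to 21598619), and it was at 447, 467 and 428 CPM in KYSE-410 with siSHIP2 and at 11.7 and 10.8 CPM in KYSE-30 with siCT (difference 5.19, SE 0.070, limma adjusted p = 9.75e-19). KYSE-410 with siCT held 135, 148 and 137 CPM, a control difference of 3.52. Against KYSE-30 with siSHIP2, at 10.29 and 11.99 CPM, the difference was 5.21. EGR1, an immediate early factor gene, widened to 2.89 from above (control difference 1.28), as did MEX3A, an RNA-binding protein gene (2.92 and 1.69), and ANOS1, the gene of the matrix protein anosmin (2.11 and 0.60). PLCXD3, a gene of the phospholipase C family, was at 39.7, 41.0 and 35.0 CPM against 0.1 and 0 CPM.

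EGFR, the receptor of epidermal growth factor (chromosome 7, 55019021 to 55211628), widened in the other direction. It stood at 204, 160 and 153 CPM in KYSE-410 with siSHIP2 and at 2350 and 2291 CPM in KYSE-30 with siCT (difference -3.75, SE 0.092, limma adjusted p = 1.40e-15), where KYSE-410 with siCT held 277, 301 and 261 CPM (-3.05). AXL, a receptor kinase gene of invasive cells, was at 27.0, 18.6 and 21.9 CPM against 642 and 765 CPM (-4.92, control difference -4.05). PLAU, the gene of urokinase, differed by -4.72 (-3.92), and PADI3, a peptidylarginine deiminase gene, by -7.75 (-7.05). The groups were far apart at each of them. By the same limit on the mean, the 6 widened genes with the largest falls were TXNDC12, an oxidoreductase of the endoplasmic reticulum (-2.04, control difference -0.39), CPNE2, a copine gene (-2.77 and -1.13), ADAM12, a metalloprotease gene (-3.92 and -2.52), CFL2, a cofilin gene (-1.49 and -0.18), LAMC1, a laminin chain gene (-1.88 and -0.63), and SEMA4B, a semaphorin gene (-1.39 and -0.18).

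Among 29 tested receptor tyrosine kinases and their ligands, 10 were higher and 17 were lower in KYSE-410 with siSHIP2 than in KYSE-30 with siCT (41.8% and 34.9% of all tested genes), with a median of -0.42, against -0.30 with siCT. ERBB2 remained higher and TYRO3 and FGFR2 narrowed from above (1.54 and 1.82, control differences 2.33 and 2.59). MST1R, DDR1 and EPHA2 widened from below along with EGFR and AXL. INSR, the insulin receptor gene, narrowed to -0.42 where the control difference was -2.01, and IGF1R closed to 0.12 where it was -0.27. MET, the receptor of hepatocyte growth factor, turned to -0.66, where the control difference was 0.34. Of 16 basal squamous genes, 10 were lower and 5 higher, against 34.9% and 41.8% of all tested genes, and 8 widened, against 16.2%. Of those 8, COL17A1, which anchors basal cells to the basement membrane, differed by -4.37 (control difference -3.72), while KRT17 differed by 6.04.

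The genes of G2/M and mitosis, which build the spindle and carry cells into and through division, were lower in KYSE-410 with siSHIP2 than in KYSE-30 with siCT, by more than with siCT. Of 40 tested members, 31 were lower and 5 were higher, against 34.9% and 41.8% of all tested genes, with a median of -0.87. The median was -0.39 with siCT in KYSE-410. Knockdown lowered 34 members and raised 1, BUB3, against 19.3% and 30.6% of all tested genes. The difference widened at 20 members, all of them downward, against 5.93% of all tested genes, and 17 to 22 widened when each library was left out. With TMM scaling 23 widened and 3 instead of 5 were higher. The count of higher members also fell when libraries were left out, to 2 without KYSE-30 siCT replicate 1 and to 3 without its replicate 2 or without KYSE-410 siSHIP2 replicate 1. Another 5 members opened, namely FOXM1, the transcription factor of late cell cycle genes, TOP2A, TPX2, CENPE and CKAP2, and CDK1 turned. In the fit of all libraries the members that were higher were AURKA, UBE2C, BUB1B, CCNA2 and ECT2, all of them narrowed.

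PLK1, the kinase of mitotic entry (chromosome 16, 23677656 to 23690367), was at 106, 82.9 and 93.8 CPM in KYSE-410 with siSHIP2 and at 212 and 224 CPM in KYSE-30 with siCT (difference -1.21, SE 0.079, limma adjusted p = 4.15e-10). Control KYSE-410 cells held 173, 164 and 157 CPM, a control difference of -0.41. The 3 groups did not overlap. BIRC5, the survivin gene, had the largest difference of the list, at 74.5, 51.8 and 63.5 CPM against 227 and 228 CPM (-1.84, control difference -0.82). HMMR, a spindle protein gene, was at 72.2, 51.7 and 61.2 CPM against 184 and 189 CPM (-1.59 and -0.67), and CENPA, the centromeric histone gene, at 16.0, 12.5 and 13.9 CPM against 37.8 and 40.3 CPM (-1.41 and -0.54). MAD2L1 and CCNB2 closed from above, and NEK2 and CDC25C remained lower (-1.08 and -1.32). CDKN1B, the gene of the CDK inhibitor p27, widened upward to 90.7, 101 and 94.8 CPM, against 56.3 and 49.8 CPM (0.84, control difference 0.22). CDKN1A, the gene of p21, narrowed to 0.81, where the control difference was 1.08.

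Promoters of 3 widened mitotic genes are printed because each holds the CHR (cell cycle genes homology region), the site through which DREAM and MYB-MuvB complexes act on such genes. Each covers 250 bases before to 50 after the RefSeq start (GRCh38.p14, 5′ to 3′, plus strand), and capitals mark each match, which lies 29 bases before the start in PLK1 (chr16:23678639-23678938), 28 and 22 before it in HMMR (chr5:163460382-163460681) and 18 before it in CENPA (chr2:26785806-26786105).
PLK1: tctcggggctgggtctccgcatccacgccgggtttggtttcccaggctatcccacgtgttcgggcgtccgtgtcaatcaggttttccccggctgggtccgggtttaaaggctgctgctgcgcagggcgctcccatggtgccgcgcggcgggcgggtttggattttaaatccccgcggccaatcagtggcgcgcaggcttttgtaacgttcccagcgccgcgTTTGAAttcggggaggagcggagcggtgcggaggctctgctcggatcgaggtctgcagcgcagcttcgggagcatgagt
HMMR: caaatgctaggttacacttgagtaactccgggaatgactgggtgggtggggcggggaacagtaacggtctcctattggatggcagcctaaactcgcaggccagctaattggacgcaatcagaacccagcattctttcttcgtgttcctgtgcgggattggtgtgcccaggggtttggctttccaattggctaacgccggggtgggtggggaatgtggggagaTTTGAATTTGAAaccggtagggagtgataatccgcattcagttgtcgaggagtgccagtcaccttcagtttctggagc
CENPA: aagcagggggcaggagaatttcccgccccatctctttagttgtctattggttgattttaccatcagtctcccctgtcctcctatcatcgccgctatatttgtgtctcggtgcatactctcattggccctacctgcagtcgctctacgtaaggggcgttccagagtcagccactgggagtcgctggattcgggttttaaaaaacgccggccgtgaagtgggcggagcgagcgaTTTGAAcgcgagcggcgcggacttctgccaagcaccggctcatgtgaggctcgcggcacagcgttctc
The letters TTTGAA, searched on both strands, were in 10.1% of 11613 promoters of tested genes, in 21 of 33 promoters of the G2/M list and in 11 of the 18 that widened. These genes were chosen after values were seen, and nothing about binding follows from the letters.

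**Figure D4:**
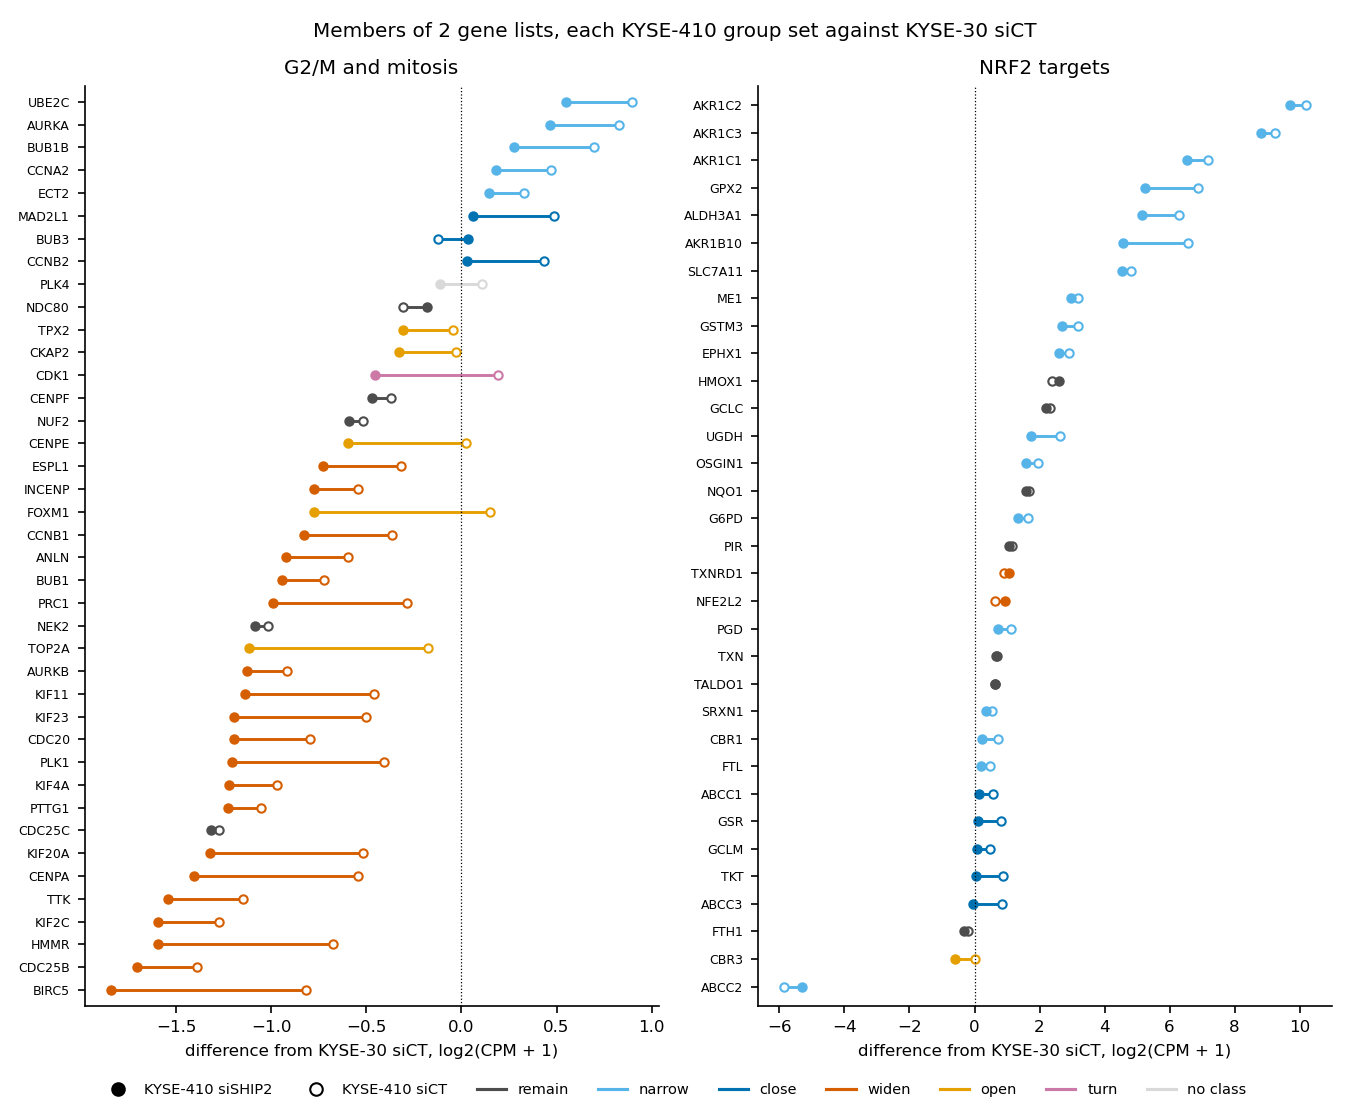
Difference of each tested member of the G2/M and NRF2 lists (log2(CPM + 1), minus KYSE-30 siCT) for KYSE-410 with siSHIP2 (filled) and KYSE-410 with siCT (open), coloured by class. Most filled points of the G2/M list lie below their open points and farther from 0, and most of the NRF2 list lie between the open points and 0.

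Of 29 tested targets of FOXO factors, 17 were higher and 9 were lower in KYSE-410 with siSHIP2 than in KYSE-30 with siCT, against 41.8% and 34.9% of all tested genes, with a median of 0.50, against -0.61 with siCT. Knockdown raised 23 and lowered 1, SOD2, against 30.6% and 19.3% of all tested genes. The list split over the classes, with 6 narrowed, 6 opened, 5 widened, 5 remaining, 4 turned and 3 closed. Over all tested genes, 12.9% narrowed, 8.8% opened, 16.2% widened, 34% remained and 7.94% closed. Without KYSE-30 siCT replicate 1 or KYSE-410 siSHIP2 replicate 1, 8 members of the list widened, and without KYSE-30 siCT replicate 2, 5 closed. The 4 that turned (4 in every fit that left out a library, against 2.09% of all tested genes) were KLHL24, PNRC1, CITED2 and FOXO4. The letters TGTTTAC, a core of the FOXO site, were in 3 of 24 promoters of the list and in 2.45% of all 11613, on either strand.

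KLHL24, a substrate adaptor of a ubiquitin ligase (chromosome 3, 183635568 to 183684477), had the largest knockdown change of the genes that turned. It was at 72.4, 80.9 and 70.1 CPM in KYSE-410 with siSHIP2 and at 22.0 and 15.8 CPM in KYSE-30 with siCT (difference 1.94, SE 0.12, limma adjusted p = 1.84e-10). Control KYSE-410 cells held 9.20, 10.8 and 11.9 CPM, below KYSE-30 (-0.76). BMF, a pro-apoptotic gene of the BCL2 family (chromosome 15, 40087890 to 40108892), opened, at 50.9, 68.6 and 56.8 CPM against 21.0 and 15.9 CPM (1.62, SE 0.12, limma adjusted p = 1.54e-09, control difference -0.15). CCNG2, an atypical cyclin gene linked to arrest, opened at 41.5, 47.6 and 40.9 CPM against 17.8 and 9.79 CPM (1.63, control difference 0.23), and its KYSE-30 siCT replicates were far apart. Members that stayed below KYSE-30 were KLF4 (-1.23), INSR (-0.42), IRS2 (-0.57), FBXO32 (-0.60), KLF6 (-0.28) and RBL2 (-0.56), each narrowed, and SOD2 (-0.64), which opened, while PINK1 and TXNIP remained (-1.05 and -2.36). TXNIP was at 18.99, 21.7 and 21.4 CPM against 133 and 91.9 CPM.

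Other genes opened without being in any list named so far. GCH1, which makes the first step of tetrahydrobiopterin synthesis, was at 28.2, 33.7 and 29.2 CPM in KYSE-410 with siSHIP2 and at 7.99 and 9.84 CPM in KYSE-30 with siCT (1.66, control difference 0.22). GPI, the glycolytic isomerase of glucose phosphate, opened downward to 273, 203 and 243 CPM against 584 and 617 CPM (-1.33, control difference -0.18). EPHB2, a receptor of ephrins, was at 35.1, 20.8 and 27.5 CPM against 84.1 and 75.0 CPM (-1.51 and -0.30). No library of KYSE-410 with siSHIP2 reached the KYSE-30 siCT range at these genes. ABLIM1, an actin-binding protein gene, ANO1, a chloride channel gene, and ABCG2, a drug efflux pump gene, also opened downward (-1.27, -1.08 and -1.07).

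PSIP1, the gene of the chromatin protein LEDGF (chromosome 9, 15464066 to 15511019), turned downward. It was at 29.9, 21.4 and 26.6 CPM in KYSE-410 with siSHIP2 and at 60.2 and 64.2 CPM in KYSE-30 with siCT (difference -1.24, SE 0.099, limma adjusted p = 5.48e-09), where KYSE-410 with siCT held 86.4, 92.1 and 86.9 CPM (0.50). KYSE-30 with siSHIP2 held 24.8 and 27.2 CPM, so against those libraries the difference was -0.01, and the change of PSIP1 with siSHIP2 in KYSE-30 was -1.23 (limma adjusted p = 9.6e-05). CERK, ceramide kinase, FADS1, a fatty acid desaturase, TBL1X, a corepressor subunit, UEVLD and RGS20 turned downward too, by smaller amounts (-0.92, -0.90, -0.72, -0.66 and -0.58). CALCOCO1 turned upward to 54.1, 72.5 and 64.4 CPM against 34.2 and 27.4 CPM (1.02, control difference -1.23), PBXIP1, a partner of PBX factors, to 0.82 (-1.41), and CREBRF, a regulator of the unfolded protein response, to 1.60 (-0.42). CDH1, the gene of E-cadherin, turned to -0.25, where the control difference was 0.63.

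Of 45 tested lysosome and autophagy genes, 29 were higher and 7 were lower in KYSE-410 with siSHIP2 than in KYSE-30 with siCT, where 41.8% and 34.9% of all tested genes were, with a median of 0.32, against -0.08 with siCT. Knockdown raised 34 and lowered 5, against 30.6% and 19.3% of all tested genes. The difference closed at 9 members, against 7.94%, among them MAP1LC3B (0.04, control difference -0.59), the acid glucosidase GAA (-0.03 and -0.68) and a subunit of the proton pump, ATP6V0A1 (-0.03 and -0.88). It turned at 6, among them CALCOCO1, TP53INP2, ULK1, NBR1 and WIPI2, against 2.09% of all tested genes. ULK1, the kinase that starts autophagy, came to 0.88, where the control difference was -0.43. The widened members were all upward, among them SQSTM1, an autophagy receptor gene (1.66 and 1.23). Scaling moved part of this, since TMM left 25 higher and 3 instead of 6 opened.

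Of 34 tested genes of ribosome biogenesis and MYC growth, 20 were lower and 8 were higher, against 34.9% and 41.8% of all tested genes, with a median of -0.25 and a median of 0.07 with siCT. Knockdown lowered 25 and raised 1, against 19.3% and 30.6%. The difference widened downward at 9 members (6 to 12 when each library was left out, against 5.93% of all tested genes), led by NOP16, NOLC1, NOP56 and DKC1 (-1.05, -0.98, -0.95 and -0.86), and opened downward at 8 (against 2.65% of all tested genes), such as the RNA polymerase I subunit gene POLR1B (-0.56, control difference -0.06). NOP58 and SRM, spermidine synthase, turned downward (-0.30 and -0.33). MYC itself remained higher by 0.42.

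Of 34 tested genes of PI3K, AKT and mTOR signalling, 18 were lower and 6 were higher in KYSE-410 with siSHIP2 than in KYSE-30 with siCT, against 34.9% and 41.8% of all tested genes, with a median of -0.27, against -0.26 with siCT. The difference closed at 6 members, against 7.94% of all tested genes. These were AKT1, PDPK1, the kinase that activates AKT (0.07, control difference -0.26), RICTOR, a subunit of mTOR complex (-0.10 and -0.60), PIK3C3, the lipid kinase of autophagy (0.06 and -0.72), and the AKT phosphatases PHLPP1 and PHLPP2. IRS1 and IRS2, adaptors of the insulin receptor, narrowed from opposite sides (1.46 and -0.57, control differences 1.85 and -1.43). Of 25 phosphoinositide phosphatases, 11 were higher and 12 were lower, against 41.8% and 34.9% of all tested genes, and the 1 that closed was INPPL1, on which the groups were paired. INPP5A differed by -1.89 (control difference -1.34) and INPP5F by -1.45 (-1.26), while INPP4B, which acts on the product of SHIP2, remained higher by 0.91.

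**Figure D5:**
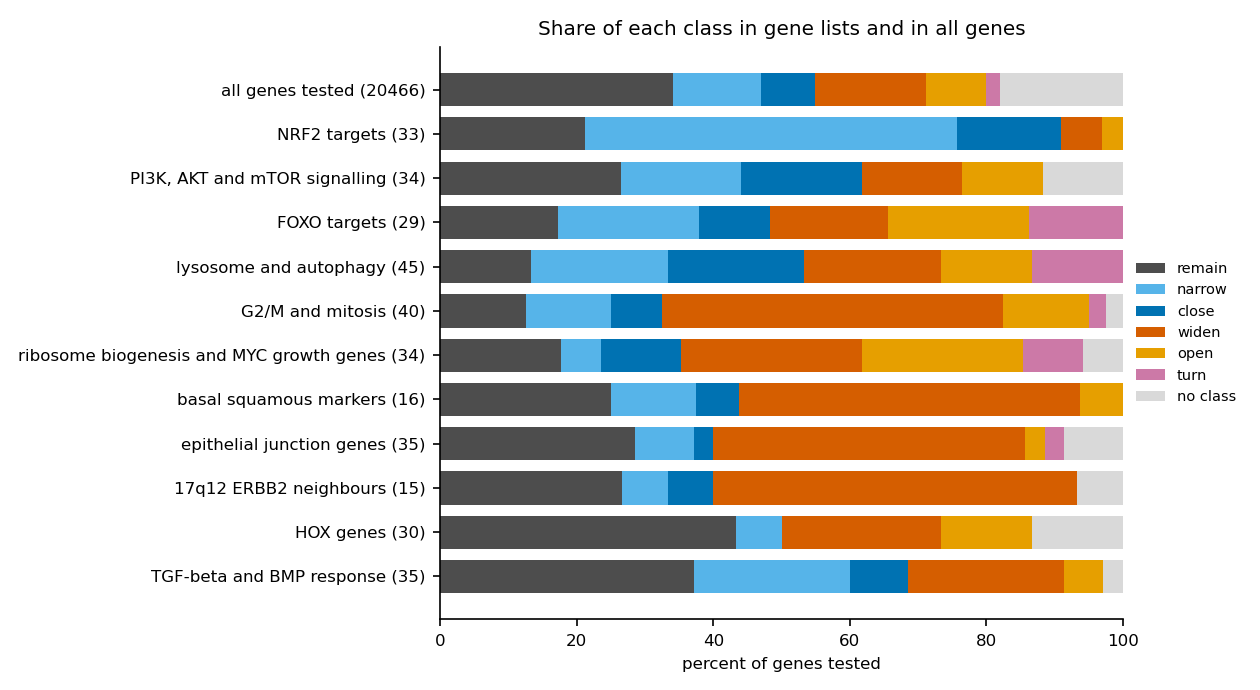
Share of tested genes in each class (percent), for all 20466 genes and for 11 gene lists. The NRF2 list has the widest narrowed band, the 17q12, G2/M and basal squamous lists have the widest widened bands, and turned members make up more of the FOXO and lysosome lists than of all genes.

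The remaining lists are read against the same 41.8% higher and 34.9% lower over all tested genes. Of 35 epithelial junction genes, 13 were higher and 18 were lower in KYSE-410 with siSHIP2 than in KYSE-30 with siCT, and 16 widened, against 16.2% of all tested genes. CGN, the tight junction gene of cingulin, was at 33.7, 28.1 and 31.1 CPM against 216 and 221 CPM (-2.78, control difference -2.14), while CTNNB1, the gene of beta-catenin, was at 705, 724 and 718 CPM against 242 and 242 CPM (1.56 and 1.39). The groups did not overlap at either gene. Of 27 matrix proteases and plasminogen activators with their inhibitors, 20 were higher and 6 were lower, with a median of 0.79, against 0.07 over all tested genes. PLAU was the most strongly lower of these, and TIMP3, an inhibitor of matrix proteases, was at 192, 175 and 187 CPM against 35.4 and 25.8 CPM (2.57 and 2.15). In the TGF-beta and BMP list of 35 genes, 21 were higher and 10 were lower, with a median of 0.93. Feedback inhibitors of the pathway were among the higher ones, with SKIL at 396, 355 and 361 CPM against 32.3 and 30.6 CPM (3.52) and SMAD6 at 93.1, 100.2 and 91.0 CPM against 8.393 and 7.195 CPM (3.45), and both remained. Of 34 genes of cholesterol and fatty acid synthesis, 14 were higher and 16 were lower, and the knockdown lowered 20, against 19.3% of all tested genes. DHCR7, a late enzyme of cholesterol synthesis, widened to 98.3, 91.2 and 94.1 CPM against 493 and 475 CPM (-2.34 and -2.02), and HMGCS1, an early enzyme of the pathway, widened upward (1.248 and 0.957).

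Against KYSE-30 cells that had received the same siRNA, 8602 genes were higher (42%) and 7418 lower (36.2%) in KYSE-410 with siSHIP2. This comparison shares the KYSE-410 libraries with the one above. It gave like values for SGK1 (-2.52), ERBB2 (5.06), EGFR (-3.83), PLK1 (-1.31), HEG1 (-0.01) and JUND (0.00). KLHL24 (2.26) and AKR1B10 (4.99) kept their direction, each somewhat above its value given earlier. Among the genes with other values were PSIP1 and GABARAPL1, above, IGFBP3 (-0.13, beside -0.79) and SOX2 (-0.71, beside -1.74). So were TP63 (1.395, beside 0.85), CCNG2 (2.41, beside 1.63) and TXNIP (-1.79, beside -2.36). Each of these genes was lowered by siSHIP2 in KYSE-30. Within KYSE-30 the change with siSHIP2 was -1.04 for SOX2 and -0.66 for IGFBP3 (limma adjusted p = 0.0035 and 0.028).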

How the data were processed

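RNA-seq values of 58302 genes in 10 libraries were used, 5 of them for the main comparison. The CPM values were deposited by the authors; STAR 2.5.3a, HTSeq and hg38 are named, per the submitters' processing notes, and the annotation, strand setting and filters are not given in the sources used here. Each library sums to 1 M, and its values are whole multiples of about 0.05 CPM that look scaled to about 20 M, so sequencing depth is unknown and no count model was used. Genes at 0.5 CPM or more in at least 2 libraries (20466) were fitted on log2(CPM + 1) with limma 3.58.1 in R 4.3.3, with 4 group means over all 10 libraries, trended variance and Benjamini-Hochberg adjustment over all tested genes at 0.05. The class rules required adjusted p under 0.05 for the differences they name, with signs as stated. Gene positions are those of GENCODE 29.

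Leading genes were those of the largest difference (remaining) or knockdown change (other classes), with a mean over the 5 libraries above 14.24 CPM and groups that did not overlap, plus up to 4 members per list by adjusted p and a set of named genes; other list members printed were chosen after their values were seen. The groups, genes and lists were chosen with earlier results of these data known. On simulated data of 20466 genes for the main comparison, 57 of 200 changes of 1.25-fold, 176 of 200 of 1.5-fold and 200 of 200 of 2-fold were recovered. These changes were planted only in genes above a low level, and no other gene changed. In the data 76.7% of tested genes were called, so the adjustment worked under other conditions and these rates need not hold there. Alternatives covered scaling, pseudocount, filters, the fold tested against, the replicate block and leaving out each library. Some genes are not reported here.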

Additional observations from a re-analysis of the deposited data

Results flagged for a closer look

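The change of INPPL1 with siSHIP2 differed between the lines. It was -1.402 on the log2(CPM + 1) scale in KYSE-410, where siSHIP2 libraries held 44.7, 37.3 and 39.1 CPM and siCT libraries 107, 108 and 109 CPM. In KYSE-30 it was -0.65, with 23.2 and 24.5 CPM in siSHIP2 libraries and 39.9 and 36.2 CPM in siCT libraries. The difference between the changes, the limma interaction term that drew attention to it, was -0.75. Its p is not given, because the groups were paired on INPPL1 levels that enter this term.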

How the results depend on the processing

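The INPPL1 difference of 0.08 was -0.0043 with upper quartile scaling. With a filter of 10 CPM, which tests fewer genes (12199), 10117 genes were called, 5509 higher and 4608 lower; 3437 differences remained and 1183 opened. Against a 1.5-fold change, 6597 were called, 3737 higher and 2860 lower; 48 narrowed, 101 closed, 55 widened, 168 opened and 4 turned. When each library was left out, 235 to 577 turned, the other counts over all tested genes stayed within 1.5 times, and INPPL1 ranged from 0.0067 to 0.15; a group left with 1 library was assumed to vary like the others. CCND1, not called at -0.03, ranged from -0.13 to 0.047, and was 0.047 without KYSE-410 siSHIP2 replicate 2 and 0.02 without KYSE-30 siCT replicate 2. Of 4080 values of 216 named genes, 4051 kept direction and call, 27 lost the call and 2, both of CCND1, reversed; for each, the cause was not tested.

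Other scalings put 49.9% to 51.4% of calls higher, against 54.5%, and moved the median difference to -0.01 to 0.02. Same-numbered libraries did not deviate together throughout (correlations -0.02, -0.23 and 0.23 between siSHIP2 and siCT in KYSE-410), so numbers were not taken as pairs; with a replicate block 15432 genes were called and 370 turned. The planned count test was not run, as the values are CPM. With unknown depth no counting error is given, and with 2 or 3 libraries a group small differences can be missed.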

Other observations

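HOX genes, which record position along the body axis, had 23 of 30 tested members higher and 4 lower in KYSE-410 with siSHIP2 than in KYSE-30 with siCT, against 41.8% and 34.9% of all tested genes, with a median of 1.11 against 0.07. HOXD10 was at 9.40, 10.49 and 9.24 CPM in KYSE-410 with siSHIP2 and listed at 0 in both KYSE-30 siCT libraries. HOXA5 widened, at 14.8, 15.6 and 16.8 CPM against 1.998 and 1.299 CPM (2.67, control difference 1.57), and HOXB6 went the other way (-1.79). Of 38 interferon-stimulated genes 18 were higher and 11 lower, against the same 41.8% and 34.9%. MX2, an antiviral GTPase gene, was at 76.2, 75.2 and 72.1 CPM against 0 and 0.05 CPM, while IFIT2, an inhibitor of viral translation, was at 5.697, 4.598 and 4.446 CPM against 27.6 and 26.0 CPM (-2.24). Of 16 tested imprinted genes, 8 were higher and 4 were lower, against 41.8% and 34.9% of all tested genes, with a median of 0.30. PEG10, a gene derived from a retrotransposon, was at 8.345, 7.196 and 7.093 CPM against 945 and 917 CPM (-6.77), GRB10, an adaptor that inhibits insulin receptor signalling, was at 53.2, 50.8 and 48.0 CPM against 0.1 and 0.2 CPM (5.49), and SNRPN was at 148, 162 and 166 CPM and listed at 0 in both KYSE-30 siCT libraries. SNRPN overlaps SNURF, so their reads cannot be told apart.

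Differences also ran together along chromosomes. Over 13917 windows of 20 neighbouring protein-coding genes, 5% had a median difference below -0.65 and 5% above 0.93. Windows named here were picked from those of extreme median, with no test, and not all of these are named. The lowest median, -4.29, was on chromosome 5 from 140664676 to 141012347, where 0 of 20 genes were higher and 20 were lower. A window that overlaps it, from 140855883 to 141227759, had 14 of 20 higher and 6 lower (median 1.95). On chromosome 11, from 99020953 to 105101431, 18 of 20 genes were higher, with a median of 2.43 (2.07 with siCT in KYSE-410). YAP1, the coactivator of the Hippo pathway, stood there at 887, 828 and 826 CPM in KYSE-410 with siSHIP2, against 135 and 123 CPM in KYSE-30 with siCT. On chromosome 17, from 28455752 to 28951771, 17 of 20 were higher (median 2.34), and from 16689537 to 18244875 0 of 20 were higher and 18 were lower (median -1.82). On chromosome 7, from 48035511 to 56116400, 14 of 20 were lower (median -1.52), EGFR among them. The median knockdown change over the genes of each of these windows was 0.13 at most.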
